A study of Mus musculus with 6 samples.

Results

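The prolactin and growth hormone receptor pathway was examined through 8 genes, namely the receptors Prlr and Ghr, the kinase Jak2, the transcription factors Stat5a, Stat5b and Stat3, and the inhibitors Cish and Socs2. The genes were taken by symbol from a table of 47480 rows, in which each symbol was found. The table holds RNA sequencing of the ventromedial hypothalamus of female mice that carry VgluT2-cre and the Ai6 reporter, in which a Cre recombinase driven from the vesicular glutamate transporter 2 gene switches on a green fluorescent protein. The medial part (VMHpvlm) and the lateral part (VMHpvll) of its posterior ventrolateral division were cut by laser from frozen coronal sections, and total RNA of each part gave 3 libraries. Both parts carry the same alleles, and neither received a treatment according to the labels. The sources used here do not state the age, the hormonal state or the number of mice, or whether fluorescence guided the laser. The library names F19, F20 and KH_161103 occur in both parts and pair the libraries, although no label ties a name to an animal. Laser capture takes every cell inside an outline, so glia and vessels enter beside the labelled neurons.

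Prolactin and growth hormone are pituitary hormones that bind related receptors of the class I cytokine family. Binding activates the kinase JAK2 on the inner side of the receptor, which phosphorylates STAT5A and STAT5B. These factors move to the nucleus and bind palindromes of the form TTCNNNGAA. Among their targets are Cish and Socs2, whose products damp the same receptors. Neurons that respond to prolactin are known in several hypothalamic nuclei, the ventromedial nucleus among them.

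The libraries held 7157831 to 11293159 reads assigned to genes. Values below are deposited normalised read counts unless another unit is named, and differences are fitted log2 differences, VMHpvlm minus VMHpvll, with standard error and a 95% confidence interval from limma. A gene is called changed at a Benjamini-Hochberg adjusted p below 0.05 over 14522 tested genes, which are those with a mean of at least 10. Some marker genes describe the captured tissue. They are no test of the dissection, because they were chosen with earlier results of these data known. Nr5a1, which encodes the steroidogenic factor of the ventromedial nucleus, was at 308 ± 19.5 (SD, n = 3) in VMHpvlm and 31.5 ± 6.73 (SD, n = 3) in VMHpvll. The oestrogen receptor gene Esr1 had the opposite order, at 513 ± 74.0 and 1490 ± 63.8, as did the progesterone receptor gene Pgr, at 1229 ± 98.7 and 3410 ± 197. Slc17a6, the gene of the transporter that drives the Cre, was at 4665 ± 139 and 4946 ± 17.1. These genes belong to a list of 10 markers of ventromedial neurons. Of the 10, 6 were called higher in VMHpvlm and 3 higher in VMHpvll, with a median log2 difference of 0.19. The part of these neurons in the results for the 8 genes was not tested.

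All 8 genes passed the filter on low values. Prlr and Jak2 were called higher in VMHpvlm, Stat5a and Stat5b were called higher in VMHpvll, and Ghr, Stat3, Cish and Socs2 were not called. Thus 4 of 8 genes were called, beside 20% of all tested genes. In the single directions the 2 of 8 genes in each stand beside 10.5% of tested genes higher in VMHpvlm and 9.48% higher in VMHpvll. The libraries of the parts did not overlap for 5 of the 8 genes, against 28.0% of tested genes. With 8 genes these shares are a description and were not tested. Without the block on library names, which took the total of called genes from 2905 to 1800, 0 of the 8 were called higher in VMHpvlm and 2 higher in VMHpvll. Without the KH_161103 pair the total was 1773.

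**Figure D1:**
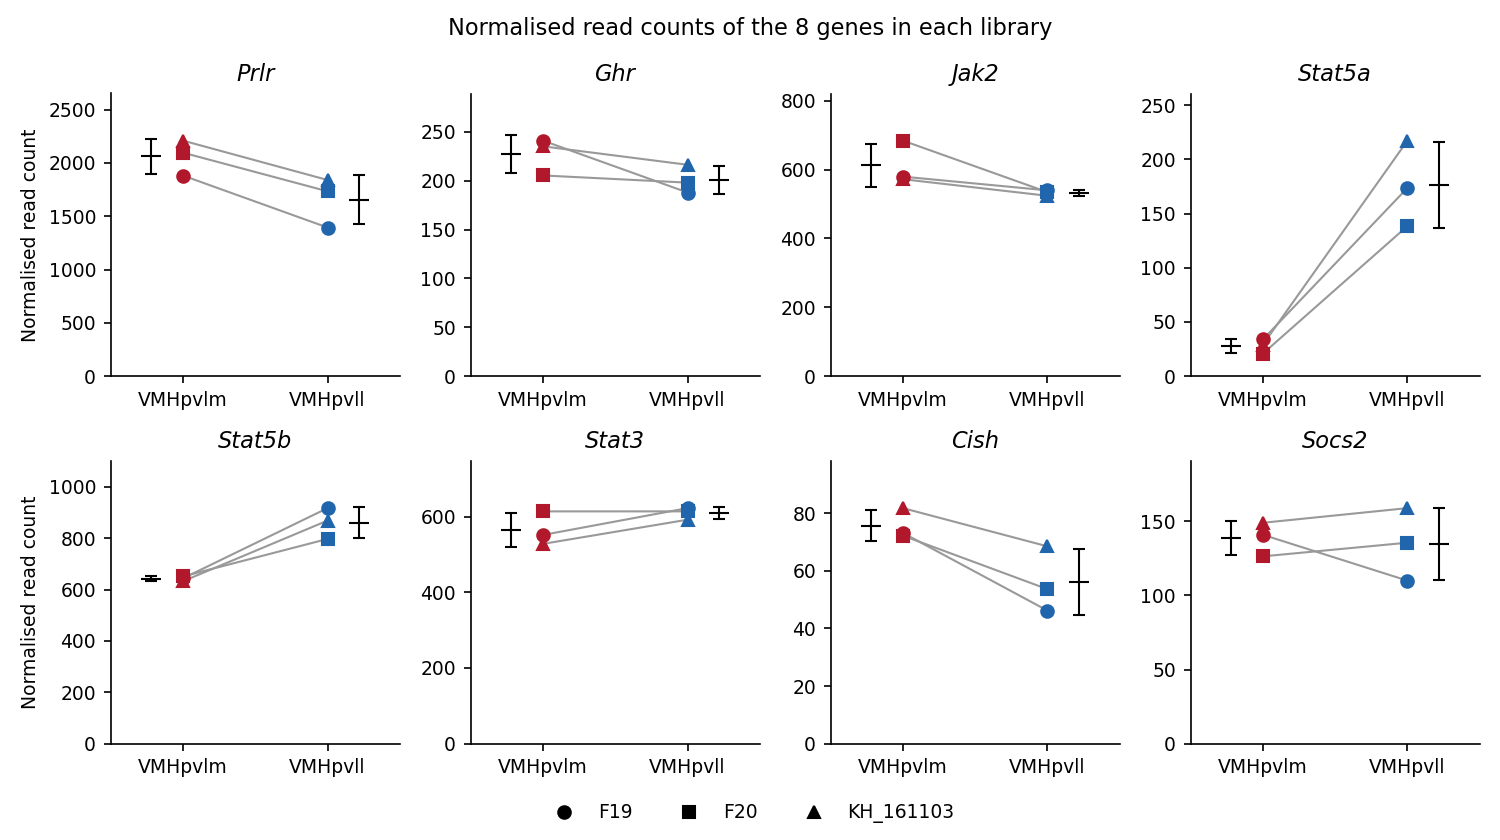
Normalised read counts (vertical axes, each from 0) of the 8 genes in the 3 VMHpvlm libraries (red) and the 3 VMHpvll libraries (blue), with grey lines between same-named libraries and bars for the mean and SD. Stat5a stands at 20.8 to 33.9 in VMHpvlm and at 139 to 217 in VMHpvll, while the libraries of the parts overlap for Ghr, Stat3 and Socs2.

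The hormones themselves were not detected. Prl, Gh and the other genes of a list of 25 prolactin and growth hormone family members had 0 reads in every library. A count of 0 allows up to 3 reads, which is 0.266 to 0.419 RPM (reads scaled to the library total) in these libraries and covers counting error only. The receptors were therefore measured in tissue without detectable transcript of their ligands at this depth.

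Prlr encodes the prolactin receptor and lies at chr15:10177238-10349180 (mm10, plus strand). Its normalised counts were 1881, 2096 and 2209 in VMHpvlm (F19, F20 and KH_161103) and 1394, 1733 and 1839.5 in VMHpvll. Every VMHpvlm library was above every VMHpvll library, and F19 was the lowest library of both parts. The means were 2062 ± 166 (SD, n = 3) and 1656 ± 233 (SD, n = 3), a 1.25-fold higher level in VMHpvlm. The fitted log2 difference was 0.32 ± 0.047 (SE; interval 0.23 to 0.42; limma adjusted p = 4.64e-07), and the named pairs differed by 0.43, 0.27 and 0.26. Without the block on library names the same difference had a limma adjusted p of 0.0581, and with a variance prior that used neither trend nor robust fitting it had 0.118. In these bulk samples, fewer cells of a type and less RNA per cell cannot be told apart.

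The annotation gives Prlr 12 transcripts, 7 of them protein coding, among them the long receptor form and shorter ones that lack much of the inner part. Counts per gene do not separate these forms. Of 15339 exonic bases, 203 (1.32%) are shared with the gene Gm21973 on the same strand. RefSeq promoter windows, which run from 250 bases before to 50 bases after a transcript start (GRCm38.p6), were given for 7 of the 8 genes, 12 windows in all, and 3 of them belong to Prlr. A window at an inner start of Prlr holds 1 match to TTCNNNGAA, the palindrome that STAT factors recognise, and it is shown because Prlr is the receptor that was called. The stretch lies at chr15:10223771-10223829, from 135 to 77 bases before that start, outside annotated exons, with the match in capitals:
Prlr: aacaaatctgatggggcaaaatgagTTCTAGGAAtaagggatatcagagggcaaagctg

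TTCNNNGAA reads the same on both strands and was found in 8.30% of 32851 RefSeq promoter windows of this length. The same palindrome with a spacer of 4 bases was found in 6.95% of the windows and in none of the 12 windows of these genes. A match is a description of the letters in a window and not of binding.

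Ghr encodes the growth hormone receptor and lies at chr15:3317760-3583492 (minus strand). Counts of Ghr were 241, 205 and 235 in VMHpvlm and 188, 198 and 216 in VMHpvll. The F20 library of VMHpvlm fell below the KH_161103 library of VMHpvll, so the parts overlapped. The means were 227 ± 19.1 and 201 ± 14.4 (SD, n = 3 each). The log2 difference of 0.18 ± 0.11 (SE) had an interval of -0.04 to 0.40 and a limma adjusted p of 0.288, so Ghr was not called and a difference up to the upper bound is not excluded by its interval. All 3 named pairs had the higher value in VMHpvlm.

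Levels of different genes were compared as RPKM, which scales reads to the exonic length of the gene and to the library total. On this scale Prlr was at 13.1 ± 1.19 in VMHpvlm and 10.3 ± 1.60 in VMHpvll (SD, n = 3 each), and Ghr at 2.43 ± 0.183 and 2.12 ± 0.199. The ratio of Prlr to Ghr was 4.61, 6.02 and 5.54 in the VMHpvlm libraries and 4.38, 5.17 and 5.02 in the VMHpvll libraries, so the ranges of the parts overlapped. Prlr stood at the percentile 79.0 of tested genes in VMHpvlm and 73.7 in VMHpvll, while Ghr stood at 34.6 and 31.3. The exonic length is the union over all annotated transcripts, so a gene with many long variants gets a lower value per kilobase.

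Jak2 encodes the kinase that both receptors use and lies at chr19:29251828-29313080 (plus strand). The counts of Jak2 were 579.7, 684 and 572 in VMHpvlm and 539.7, 535 and 524 in VMHpvll. The parts did not overlap, and the F20 library of VMHpvlm was higher than the others. The means were 612 ± 62.7 and 533 ± 8.02 (SD, n = 3 each), 1.15-fold apart. The log2 difference was 0.20 ± 0.071 (SE; interval 0.05 to 0.34), with a limma adjusted p of 0.0449. The call was lost in 8 of 14 alternative settings. Without the F20 pair the difference was 0.11 (adjusted p = 0.367), without the KH_161103 pair 0.23 (0.116), and without the block on library names 0.20 (0.152).

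**Figure D2:**
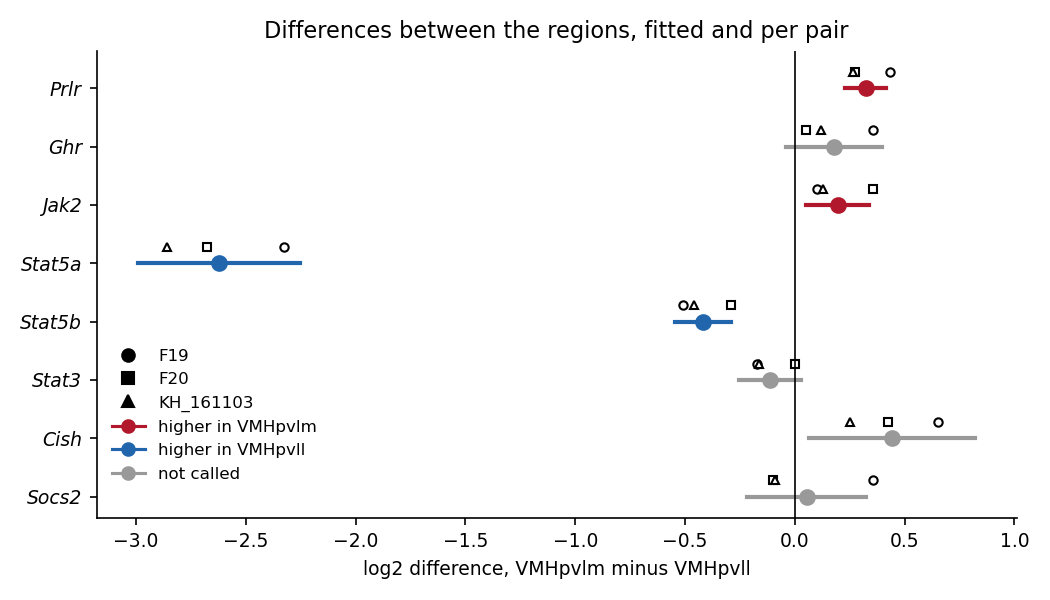
Fitted log2 difference of each gene (horizontal axis, VMHpvlm minus VMHpvll; filled points with 95% confidence intervals) and the differences of the named pairs (open symbols above). Prlr and Jak2 lie to the right of 0, Stat5b lies to the left at -0.42, and Stat5a stands farthest from 0 at -2.62.

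Stat5a and Stat5b, whose proteins carry the signal of both receptors to the nucleus, were both lower in VMHpvlm, against the direction of Prlr and Jak2. Stat5a lies at chr11:100859351-100885169 (plus strand). Its normalised counts were 33.9, 20.8 and 29.1 in VMHpvlm and 174, 139 and 217 in VMHpvll, from 25, 15 and 32 recovered reads and 158, 93 and 238 recovered reads. The lowest VMHpvll library was above every VMHpvlm library by several times. The means were 27.9 ± 6.60 and 176 ± 39.5 (SD, n = 3 each), a 6.32-fold higher level in VMHpvll. The log2 difference was -2.62 ± 0.18 (SE; interval -2.99 to -2.25; limma adjusted p = 1.52e-15), and the named pairs differed by -2.33, -2.68 and -2.86. By size it was number 19 among 1377 genes called higher in VMHpvll. The call held in all 14 alternative settings, with differences of -2.77 to -2.46.

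Stat5b lies at chr11:100780731-100850724 (minus strand). Counts of Stat5b were 643, 651 and 632 in VMHpvlm and 917, 797 and 868 in VMHpvll, with no overlap between the parts. The VMHpvlm libraries lay close together. The means were 642 ± 9.48 and 861 ± 60.4 (SD, n = 3 each), a 1.34-fold higher level in VMHpvll, with a log2 difference of -0.42 ± 0.063 (SE; interval -0.55 to -0.29; limma adjusted p = 1.23e-06). The named pairs differed by -0.51, -0.29 and -0.46. Under the variance prior without trend and robust fitting the adjusted p was 0.0914.

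The proteins of these neighbouring genes are close relatives, and the genes lie head to head with 8626 bases between them. Of the distinct 50-base stretches in their transcripts, 608 occur in both, which is 8.21% of those of Stat5a and 11.0% of those of Stat5b, and reads from such stretches cannot be given to either gene by sequence alone. How the authors' counting treated them is not stated in the sources used here. Among the promoter windows of both genes, likeness was greatest between those at inner starts, which align over 65 bases without a gap. Of these bases, 58 (89.2%) are identical. The next best alignment covered 21 bases, 18 of them identical. Of the 65 bases, 30 are shown because Stat5a and Stat5b are the factors that were called. These 30 were chosen as the stretch before both starts with the most identical bases, so their identity is high by choice. Identical bases, 28 of the 30, are in capitals. The Stat5a stretch lies at chr11:100860435-100860464 on the plus strand, from 49 to 20 bases before its start and inside an exon of another transcript. The Stat5b stretch lies at chr11:100822581-100822610 on the minus strand, from 40 to 11 bases before its start:
Stat5a: GCAGCTGACCTTTgAGgAGGAAATCGCTGC
Stat5b: GCAGCTGACCTTTtAGaAGGAAATCGCTGC

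None of the windows of Stat5a, Stat5b, Stat3, Jak2 or Ghr holds TTCNNNGAA, which says only that these letters are not in those windows.

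Per length, Stat5b was far above Stat5a in both parts, and the balance between them differed. Stat5b was at 11.3 ± 0.229 RPKM in VMHpvlm and 14.8 ± 1.18 in VMHpvll, and Stat5a at 0.379 ± 0.0855 and 2.37 ± 0.586 (SD, n = 3 each). Stat5a made up 3.93%, 2.42% and 3.45% of the sum of both genes in the VMHpvlm libraries and 12.8%, 11.9% and 16.3% in the VMHpvll libraries. On the same scale, the sum itself was 11.6, 11.8 and 11.5 in VMHpvlm and 18.0, 15.3 and 18.4 in VMHpvll. Prlr therefore stood at 1.01, 1.13 and 1.22 times the sum of the STAT5 genes in VMHpvlm and at 0.479, 0.692 and 0.641 times in VMHpvll, with no overlap. These ratios follow from the differences given above and are no separate test.

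Stat3 encodes a related factor that serves mainly leptin and the interleukin 6 family, and it lies at chr11:100885098-100939540 (minus strand). The counts of Stat3 were 551, 613.5 and 528 in VMHpvlm and 622, 613.6 and 592 in VMHpvll, so the F20 libraries were level and the parts overlapped. The means were 564 ± 44.3 and 609 ± 15.8 (SD, n = 3 each), and the log2 difference of -0.11 ± 0.069 (SE; interval -0.25 to 0.03) had a limma adjusted p of 0.286. The end of Stat3 overlaps the end of Stat5a by 72 exonic bases on the opposite strand, which is 1.01% of the exonic length of Stat5a and 0.756% of that of Stat3. Read in the sense direction only, their transcripts share no 50-base stretch. That comparison cannot show the 72 overlapping bases, because these lie on opposite strands. The library kit keeps strand, but the sources used here do not state whether the counting used it. The part of these shared bases in the Stat5a counts was not tested.

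**Figure D3:**
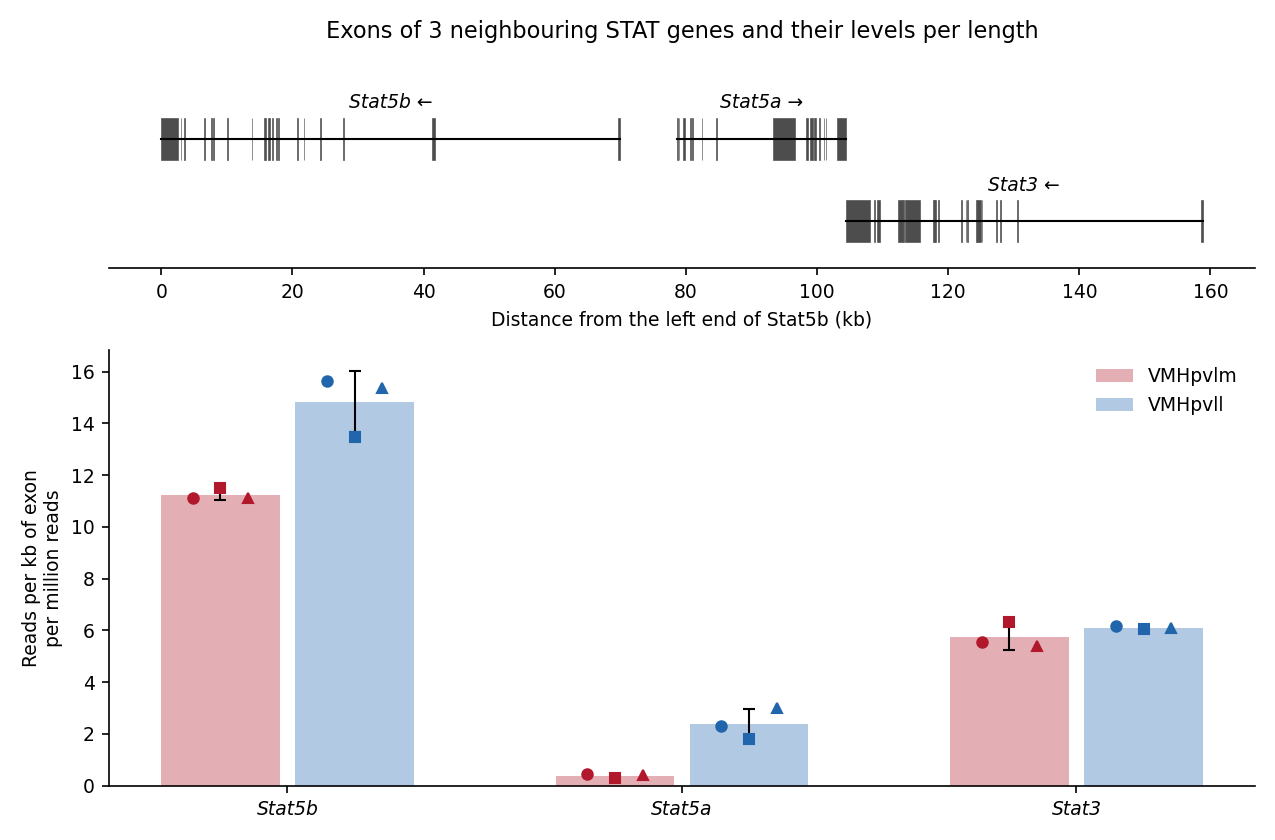
Upper panel, exons (boxes) of Stat5b, Stat5a and Stat3 by distance from the left end of Stat5b in kilobases, with arrows for the strand; lower panel, RPKM in each part, as bars for the mean, error bars for the SD (n = 3) and points for the libraries. Stat5a meets Stat3 at its end and rises from 0.379 in VMHpvlm to 2.37 in VMHpvll, while Stat3 stands at 5.75 and 6.10.

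Cish and Socs2 encode inhibitors that STAT5 is known to induce. Cish lies at chr9:107296026-107302784 (plus strand). Its normalised counts were 73.1, 72.2 and 81.7 in VMHpvlm and 46.2, 53.6 and 68.5 in VMHpvll. The parts did not overlap, and the means were 75.7 ± 5.27 and 56.1 ± 11.4 (SD, n = 3 each), 1.35-fold apart. The log2 difference was 0.44 ± 0.19 (SE; interval 0.06 to 0.82), with an unadjusted p of 0.0229 and a limma adjusted p of 0.0946, so Cish was not called. All 3 named pairs had the higher value in VMHpvlm, by 0.65, 0.42 and 0.25. Of its 6419 exonic bases, 261 (4.07%) overlap the antisense pseudogene Gm17040 and 479 (7.46%) the antisense gene Gm17041, so without strand their reads could not be told from those of Cish.

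The promoter window of Cish, at a RefSeq start inside the annotated gene, holds 2 matches to TTCNNNGAA close together at that start. At least that many matches were found in 0.457% of RefSeq windows. Those of Cish are shown because Cish is the textbook target of STAT5, with the matches in capitals. The stretch lies at chr9:107296656-107296681, from 3 bases before the start to base 23 counted from the start, with all 26 bases inside annotated exons:
Cish: gttTTCCTGGAAagTTCTTGGAAatc

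Socs2 lies at chr10:95385362-95417180 (minus strand). The counts of Socs2 were 141, 126 and 149 in VMHpvlm and 109.9, 136 and 159 in VMHpvll. The F19 pair had the higher value in VMHpvlm, by 0.35, and the F20 and KH_161103 pairs in VMHpvll, by -0.10 and -0.09. The means were 139 ± 11.5 and 135 ± 24.5 (SD, n = 3 each), and the log2 difference of 0.05 ± 0.13 (SE; interval -0.22 to 0.33) had a limma adjusted p of 0.845. Without the F19 pair the sign turned, at -0.10 (adjusted p = 0.798).

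The order of the 8 genes per length showed how much the parts share. In VMHpvlm, Prlr, Jak2 and Stat5b came first, at 13.1, 11.8 and 11.3 RPKM. The libraries of Jak2 overlapped those of Prlr and those of Stat5b, while every Prlr library was above every Stat5b library. Stat3 at 5.75 and Ghr at 2.43 followed, then Socs2 at 1.41 and Cish at 1.14, and Stat5a at 0.379 came last. In VMHpvll, Stat5b at 14.8 was above Prlr at 10.3 and Jak2 at 10.1, of which the libraries of the last pair overlapped. Stat3 at 6.10 followed, and Stat5a at 2.37 stood beside Ghr at 2.12 with overlapping libraries, above Socs2 at 1.35 and Cish at 0.837. Stat5a thus moved from the percentile 4.93 of tested genes in VMHpvlm to 34.2 in VMHpvll.

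Among the other class I cytokine receptors, the family of Prlr and Ghr, 3 of 14 tested genes were called higher in VMHpvlm and 0 higher in VMHpvll. The shares over all tested genes were 10.5% and 9.48%. DESeq2 called 1 of these 14 genes. Lepr, the leptin receptor gene, was at 72.9 ± 11.7 and 33.9 ± 15.3 (SD, n = 3 each; log2 difference 1.19, limma adjusted p = 7.88e-05). Il4ra, which encodes a chain of the interleukin 4 receptor, was at 86.5 ± 5.95 and 56.9 ± 7.94 (0.60, 0.0117), and Il13ra1, whose product pairs with it, at 133 ± 3.74 and 98.9 ± 4.22 (0.42, 0.0282). Cntfr, the ciliary neurotrophic factor receptor gene, was not called, at -0.22 (0.0550). Including Prlr and Ghr, 16 of 35 family genes were tested and the median difference was -0.04, beside 0.00247 over all tested genes. Of the 4 calls in VMHpvlm that include Prlr, 2 were left without the F19 pair and 2 without the KH_161103 pair. Per length, Cntfr was at 12.2 ± 1.40 and 14.0 ± 0.561 RPKM, near Prlr.

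In the JAK and STAT family, 10 of 11 genes were tested, and the called genes were the members Jak2, Stat5a and Stat5b. Of the other genes by smallest p, Jak1 had a log2 difference of 0.08 (limma adjusted p = 0.288), Stat2 of -0.13 (0.541), Tyk2 of -0.09 (0.808) and Stat6 of 0.12 (0.827). Of 20 tested inhibitors of the pathway, 1 was called, Cbl, whose product marks signalling proteins for breakdown, at 1206 ± 31.4 and 1328 ± 10.6 (log2 difference -0.14, adjusted p = 0.0473). Socs5 at 0.12 (0.0936), Socs6 at 0.26 (0.111) and the phosphatase gene Ptpn1 at -0.20 (0.169) were not called. Over all tested genes, 20% were called in either direction. The median over the inhibitors was -0.02, and the number called higher in VMHpvll was 0 when any of the 3 pairs was left out.

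Of 30 tested receptor adaptors and kinases of the parallel branches, 4 were called higher in VMHpvlm and 5 higher in VMHpvll. Over all tested genes the shares were 10.5% and 9.48%, and DESeq2 called 2 of the 30. Irs4 and Irs2, whose products dock PI3 kinase to receptors, were the leading pair. Irs4 was at 1785 ± 70.1 in VMHpvlm and 2773 ± 88.3 in VMHpvll (SD, n = 3 each; log2 difference -0.64, limma adjusted p = 1.09e-15), and Irs2 at 1731 ± 56.1 and 2372 ± 183 (-0.45, 2.05e-10). The adaptor gene Shc2, at -0.36 (9.53e-04), and Vav2, which encodes an activator of small GTPases, at -0.62 (1.33e-03), were also higher in VMHpvll. The median over the 30 genes was -0.03. The number called higher in VMHpvlm was 1 without the F19 pair and 0 without the KH_161103 pair.

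Of 14 tested genes linked to STAT5 in other tissues, 2 were called in each direction, and the median was 0.04. Beside these counts stand 10.5% of all tested genes called higher in VMHpvlm and 9.48% higher in VMHpvll. Igf1, the growth factor gene that growth hormone drives in liver, had normalised counts of 17.6, 16.7 and 16.3 in VMHpvlm and 84.6, 58.1 and 53.9 in VMHpvll. Its libraries did not overlap, and it was 3.88-fold higher in VMHpvll (log2 difference -1.87, limma adjusted p = 1.86e-07). The cyclin gene Ccnd1 was also higher in VMHpvll, at 86.5 ± 22.3 and 174 ± 31.0 (-1.01, 2.16e-07). Myc, at 96.9 ± 11.6 and 47.6 ± 16.6 (1.07, 1.12e-04), and the cyclin gene Ccnd2, at 319 ± 27.5 and 234 ± 14.3 (0.44, 6.71e-04), were higher in VMHpvlm. The STAT5-linked genes thus had no common direction, and without the KH_161103 pair 0 were called higher in VMHpvlm.

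In the wider growth hormone and IGF axis, 3 of 17 tested genes were called higher in VMHpvlm and 6 higher in VMHpvll, with a median of 0.01. All tested genes had shares of 10.5% and 9.48% in these directions. The somatostatin receptor genes Sstr3, at 168 ± 19.4 and 63.4 ± 13.5 (SD, n = 3 each; log2 difference 1.40, limma adjusted p = 9.72e-10), and Sstr1, at 99.8 ± 6.75 and 37.4 ± 2.85 (1.39, 1.57e-07), were higher in VMHpvlm. The ghrelin receptor gene Ghsr, at 70.4 ± 5.37 and 171 ± 28.4 (-1.26, 8.02e-09), was higher in VMHpvll, as was Igf1.

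**Figure D4:**
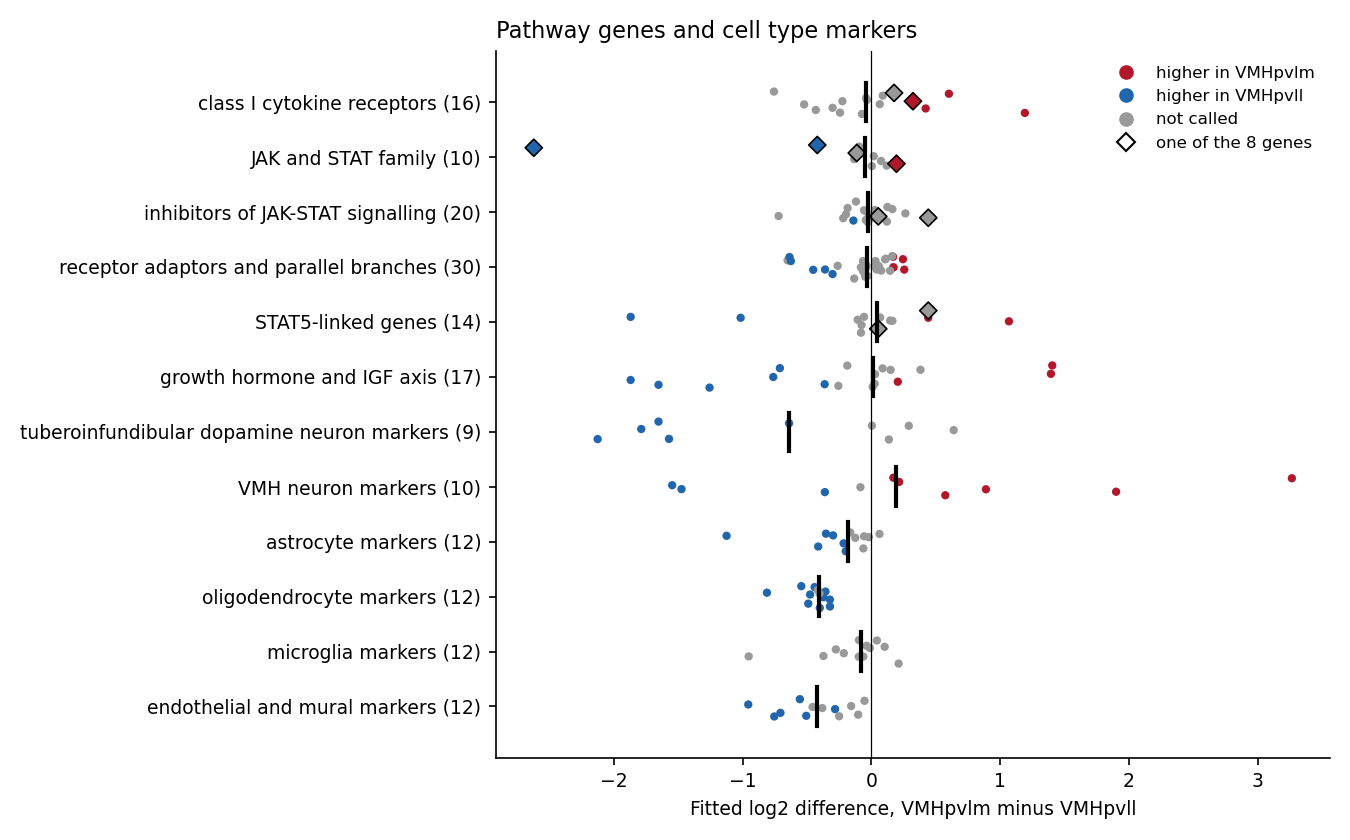
Fitted log2 differences (horizontal axis, VMHpvlm minus VMHpvll) of the tested genes of each pathway list and each cell type marker list, with the number tested in brackets, a vertical bar at the median, colours for the calls and diamonds for the 8 genes. Pathway lists have medians of -0.05 to 0.04, and the oligodendrocyte markers lie to the left with a median of -0.41.

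Some markers of other cells were called higher in VMHpvll, as the STAT5 genes were, beside 9.48% of all tested genes. No marker of the 4 lists that follow was called higher in VMHpvlm. Of 12 oligodendrocyte markers 10 were called higher in VMHpvll, with a summed level of 12146 to 13942 normalised counts in VMHpvlm and 16405 to 17658 in VMHpvll, and Mbp, the myelin protein gene, had a log2 difference of -0.44. Of 12 astrocyte markers 6 were called higher in VMHpvll, at sums of 31250.2 to 33614 and 36686 to 41798, with Gfap at -1.12. Of 12 endothelial and mural markers 6 were called higher in VMHpvll, at sums of 1948 to 2231 and 2766 to 3025, with Kdr at -0.96. None of 12 microglia markers was called by limma, edgeR or DESeq2, with 2 at an unadjusted limma p below 0.05, and their sums were 1314 to 1434 and 1418 to 1577. DESeq2 called 7 oligodendrocyte, 3 astrocyte and 2 endothelial and mural markers. Without the F19 pair 3 astrocyte and 3 endothelial and mural markers were called by limma. No marker of these 4 lists was at 0 in all libraries. The medians of the lists, -0.41, -0.18, -0.42 and -0.08, compare with -0.42 for Stat5b and -2.62 for Stat5a. The part of these cells in the results for Stat5a, Stat5b and Igf1 was not tested.

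Dopamine neurons of the nearby arcuate nucleus and the choroid plexus are both known for prolactin receptors. Of 12 markers of the dopamine neurons 9 were tested and 5 were called higher in VMHpvll, beside 9.48% of all tested genes. The 5 include the neuropeptide genes Gal, with a log2 difference of -1.57, Nts, with -0.64, and Ghrh. These neuropeptide genes are not genes of dopamine synthesis or transport, which leaves Th and Slc6a3 among the 5. Ghrh was at 1.80 ± 1.52 RPKM in VMHpvlm and 4.54 ± 2.09 in VMHpvll (SD, n = 3 each), with overlapping libraries. Sums over the list were 468 to 539 in VMHpvlm and 667 to 756 in VMHpvll, and Foxa1 was at 0 in all libraries. Th, the gene of the rate-limiting enzyme of dopamine synthesis, was at 13.9 ± 8.58 and 42.7 ± 4.80 (SD, n = 3 each), and the transporter gene Slc6a3 at 5.77 ± 2.25 and 28.9 ± 11.2. Slc6a3 passed the minimum mean of 10 only through its VMHpvll libraries. The other 4 tested markers were not called, with log2 differences of 0.0045 for Pts, 0.14 for Ddc, 0.29 for Gch1 and 0.64 for Nr4a2. The part of these cells in the result for Prlr was not tested. Of 7 choroid plexus markers 2 were tested, Kl at -0.79 and Clic6 at 0.67. The defining choroid plexus genes Ttr and Folr1 had 0 to 1 reads in every library, and Kcnj13 and Otx2 had 0.

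The genes most like the receptors and Stat5a over the 6 libraries were found by Pearson's r of log2 values among 11124 genes with a mean of at least 50. The libraries share their part, their name and their depth, so r is a description. For Prlr these included Prune, Atp2a2 and Adcy5, with r of 0.994 to 0.995. The log2 differences of the named genes, 0.11, 0.05 and 0.07, were smaller than that of Prlr, and none of them was called. A further gene of this set is not reported here. For Ghr they were Prkdc, Cc2d1b, Slc9a8 and Fgf14, with r of 0.982 to 0.991. For Stat5a they were Me3, Iqsec3, Appl2 and Ptpn5, with r of 0.998 to 0.999, and their own log2 differences of -1.03, -0.31, -0.31 and -0.92 were smaller than that of Stat5a. For Socs2 they were Mon2, Gpatch8, Fam193b and Zc3h14, with r of 0.976 to 0.990.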

How the data were processed

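RNA from 3 VMHpvlm and 3 VMHpvll libraries was measured with a stranded total RNA kit, per the labels' protocols. The submitters' processing notes name HISAT2, featureCounts and mm10, without versions or a role for each. The deposited table holds a normalised signal per gene, read counts that the authors divided by a size factor for each library; dividing each library by the value of 1 read gave whole reads for 100% of values (tolerance 0.05 reads). Annotation came from GENCODE M21 (mm10) and promoters from RefSeq (GRCm38.p6). RPKM and RPM values were computed from the recovered reads, with the union of annotated exons as the length, which 96.5% of tested genes had.

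Genes with a mean of at least 10 were tested with limma 3.58.1 (R 4.3.3) on log2(value + 1), with part and library name as terms and a variance prior with trend and robust fitting. Fold changes on this scale understate changes of low genes. With 2 residual degrees of freedom per gene against a median prior of 39.9, the shared prior carries most of the error. The names were kept as a block because both parts share them. Deviations of same-named libraries correlated at 0.255, 0.244 and 0.363, and of others at -0.247 to 0.0067. Deviations were taken from the mean of the 3 libraries of a part, so positive values for same names push the other values down. No source says that the libraries of a part came from separate animals, so the p-values cover only the spread among libraries, which may be technical. The fit was tested on simulated data.

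The members and lists were chosen with earlier results of these data known. Besides the 8 genes, the 4 genes of smallest p in each list, the 4 genes most like Prlr, Ghr, Stat5a and Socs2, and Nr5a1, Esr1, Pgr and Slc17a6 could be named; 1 gene that this rule names is not reported here. Genes named with their overlaps (Gm21973, Gm17040, Gm17041), the choroid plexus genes at or near 0, Foxa1 and the per-length value of Cntfr come beside these. So do the remaining tested dopamine neuron markers Ghrh, Pts, Ddc, Gch1 and Nr4a2. Alternatives were no block, a random block, other pseudocounts (0.5 and 5), no filter and a minimum mean of 50, scaling to the same total or upper quartile, a plain variance prior, edgeR 4.0.16 and DESeq2 1.42.0 on recovered reads, and leaving out each pair. Among the deposited gene names, 27 had been turned into dates, none of them used here.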

Additional observations from a re-analysis of the deposited data

How the results depend on the processing

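Over 14 alternative settings, Stat5a kept its call in all 14 (adjusted p 3.10e-40 to 0.0258), Stat5b in 13, Prlr in 12 and Jak2 in 6, and Ghr, Stat3 and Cish were not called in any. The number of called genes, 2905 with the block on library names, was 1800 without the replicate block, 422 with the plain variance prior, 1230 with DESeq2, and 1773 to 2872 when each pair was left out. Without the replicate block, the log2 differences were 0.32 for Prlr (adjusted p = 0.0581) and 0.20 for Jak2 (0.152). With the plain variance prior they were 0.32 for Prlr (0.118), 0.20 for Jak2 (0.284) and -0.42 for Stat5b (0.0914). Jak2 also missed the threshold with a random block (0.20, 0.0598), with no filter (0.20, 0.0777), with edgeR (0.18, 0.0661) and with DESeq2 (0.19, 0.479), and ranged from 0.11 to 0.24 when each pair was left out. Socs2 ranged from -0.10 to 0.13 when each pair was left out, and turned sign without the F19 pair. The cause of these changes was not tested. Leaving out a pair leaves fewer libraries and 1 residual degree of freedom. For the lists, 28 counts were recomputed under 6 of the 14 settings, which left out DESeq2 and the plain variance prior. Of these 168 recomputed list counts, 145 were within 1.5 times the value given. Counts of 0 that stayed at 0 are among the 145 and say little about stability. Stat5a rests on 15 to 32 reads in the VMHpvlm libraries, which limits its fold change.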
